A study of Mus musculus with 16 samples.

Results

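The genes described here encode the receptor parts through which macrophages detect bacterial lipopolysaccharide (LPS) and other microbial ligands. They were chosen by name: Cd14, Tlr4, Ly96, Tlr2 and Myd88. Of these 5 genes, 3 had a row among the 7946 listed genes (Cd14, Tlr2 and Myd88), and Tlr4 and Ly96 are not analysed here. The libraries were made from alveolar macrophages (AMs) of female C57BL/6 mice, labelled C57BL6, which inhaled either aerosolized PBS or PBS with 0.5 mg/ml of Escherichia coli LPS. Exposures lasted 30 min and were given 3 times a week over 10 weeks, and lungs were taken 48 h after the last one. The mice used across the study were 10 to 14 weeks or 24 months old, and no source used here says which age these libraries come from. CD45+CD11c+SiglecF+ cells were fixed in methanol, stained for the p16 protein inside the cell and divided by that signal into a p16-positive and a p16-negative fraction, 5000 cells per sample. Per the labels the libraries came from pooled samples. This gave 4 groups of 4 libraries: PBS p16-negative, PBS p16-positive, LPS p16-negative and LPS p16-positive.

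As background, LPS is handed by the LPS-binding protein to CD14, a surface protein without a signalling domain of its own, which passes it to the complex of TLR4 and MD-2 (the product of Ly96). TLR2 is the receptor for bacterial lipopeptides, works as a pair with TLR1 or TLR6, and also receives ligands from CD14. MYD88 is the adapter that most Toll-like receptors (TLRs) recruit, and it assembles with the kinases IRAK4, IRAK1 and IRAK2 into the Myddosome, which leads to activation of NF-kB. AMs are the resident phagocytes of the air spaces and meet inhaled LPS first.

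No upstream sequence was available here for Cd14. The upstream sequences shown are those of Tlr2 and Myd88, and of Irak2, the pathway gene that passed the test after LPS. They are the 250 bases before the RefSeq start on build GRCm38.p6, written 5′ to 3′ on the strand of the gene, which is the minus strand for Tlr2 (chr3:83841609-83841858) and Myd88 (chr9:119340019-119340268) and the plus strand for Irak2 (chr6:113638217-113638466). The Tlr2 window precedes the start of 1 transcript and lies mostly within the annotated span of the gene. Capitals mark matches to the NF-kB-like pattern GGGNNNNNCC on either strand.
Tlr2: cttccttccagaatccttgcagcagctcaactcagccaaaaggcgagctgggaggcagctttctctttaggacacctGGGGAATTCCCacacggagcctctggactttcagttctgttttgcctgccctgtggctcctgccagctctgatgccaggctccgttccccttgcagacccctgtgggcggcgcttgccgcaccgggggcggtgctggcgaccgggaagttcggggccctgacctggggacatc
Myd88: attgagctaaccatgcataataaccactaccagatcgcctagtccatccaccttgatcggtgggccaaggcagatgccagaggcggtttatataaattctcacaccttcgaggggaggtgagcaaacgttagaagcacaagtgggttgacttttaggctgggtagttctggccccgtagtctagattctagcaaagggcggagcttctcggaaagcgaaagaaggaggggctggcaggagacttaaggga
Irak2: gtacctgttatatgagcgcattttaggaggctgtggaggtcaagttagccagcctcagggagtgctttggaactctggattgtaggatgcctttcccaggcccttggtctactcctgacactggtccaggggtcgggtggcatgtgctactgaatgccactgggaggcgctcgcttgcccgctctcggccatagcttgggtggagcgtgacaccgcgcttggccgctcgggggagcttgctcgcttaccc
The Tlr2 window held 3 matches counted by strand, all in 1 stretch 173 to 163 bases before the start. The site GGGAATTCCC reads the same on both strands and was counted on each, beside the overlapping GGGGAATTCC. The Myd88 and Irak2 windows held 0 matches. The same pattern occurred in 45.8% of all 32851 windows of this length, so a match is common. The PU.1 core GAGGAA, bound by a factor that macrophages depend on, occurred in 0 of the 3 windows and in 23.3% of all windows.

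Transcript 3′ ends were counted by unique molecular identifiers (UMIs, 1 for each captured molecule), and levels are given as CPM, the UMIs of a gene scaled to the same total in every library. Library totals ran from 13861 to 1176358 UMIs. PBS replicate 1 was the shallowest library in either fraction. With 3 UMIs taken as the floor, a count of 0 there allows up to 190 CPM in the p16-negative and 216 CPM in the p16-positive library. In the deepest library, LPS p16-positive replicate 4, a count of 0 would allow 2.55 CPM. The AM identity was checked against a list of 19 AM markers. All 19 had a row and took 0.309% to 1.25% of UMIs, with 5 and 6 of them at 0 in the shallow PBS replicate 1 libraries of the p16-negative and p16-positive fraction. Siglecf, the surface protein of the sort, was low at 7.97 ± 4.79 CPM in LPS p16-positive (SD, n = 4) to 22.1 ± 15.0 CPM in PBS p16-positive libraries, while the scavenger receptor Marco ran from 336 ± 81.0 CPM in LPS p16-negative to 1055 ± 410 CPM in PBS p16-negative libraries. Markers of airway and alveolar epithelium, a cell type the sort should exclude, took 0.618% to 17.9% of UMIs in PBS p16-negative, 3.27% to 27.3% in PBS p16-positive, 0.292% to 3.17% in LPS p16-negative and 0.375% to 9.89% in LPS p16-positive libraries. All 18 epithelial markers had a row. In sorted populations profiled in bulk, fewer cells of a type and less RNA per cell cannot be told apart.

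The 3 measured genes were among the better covered of the table. Cd14 lies on chromosome 18 (GRCm38.p6, chr18:36725064-36726815), had 406 UMIs over the 16 libraries and was listed at 0 in 2 of them. Tlr2 lies on chromosome 3 (chr3:83836272-83841824), had 312 UMIs and was at 0 in 1 library. Myd88 lies on chromosome 9 (chr9:119335934-119340018), had 913 UMIs and was found in every library. No gene of the GENCODE M21 annotation overlaps Cd14 or Tlr2, whereas Slc22a14 overlaps Myd88 on the same strand and Acaa1a on the opposite one, so a part of the Myd88 count could belong to a neighbour. Slc22a14 had no row in the table, and Acaa1a had 3539 UMIs.

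Cd14, the co-receptor, was at most 82.2 CPM in PBS libraries and highest in the replicate 4 libraries of both LPS groups. In PBS p16-negative libraries it had 0, 82.2, 68.2 and 22.3 CPM, in the order of the replicate numbers, and in PBS p16-positive libraries 0, 50.5, 62.0 and 78.4 CPM. Both zeros were in the shallow replicate 1 libraries, where they allow levels above those of every other PBS library. In LPS p16-negative libraries Cd14 had 59.4, 64.3, 36.04 and 167 CPM, and in LPS p16-positive libraries 28.0, 71.5, 67.4 and 183 CPM. The 6 other LPS libraries lay within the range of the PBS libraries, so the groups overlapped. The group means were 43.2 ± 38.5, 47.7 ± 33.8, 81.6 ± 58.1 and 87.4 ± 66.5 CPM (SD, n = 4) in PBS p16-negative, PBS p16-positive, LPS p16-negative and LPS p16-positive libraries. The order of the means put both LPS groups above both PBS groups, and no neighbours in this order differed by more than the larger of their SDs.

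Replicate 4 of the LPS libraries carried much of the Cd14 count. In LPS p16-positive it held 215 of the 249 Cd14 UMIs of the group (86.3%) against 66.6% of all UMIs of the group. In LPS p16-negative it held 67 of 88 (76.1%) against 49.7%. Their exact binomial intervals, 159 to 209 and 129 to 212 CPM, cover counting error only and lay above the point values of the 14 other libraries.

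Tlr2, the lipopeptide receptor, showed no order by treatment. It had 0, 82.2, 119 and 89.2 CPM in PBS p16-negative and 144, 10.1, 46.5 and 73.8 CPM in PBS p16-positive libraries, and the 144 CPM of PBS p16-positive replicate 1 rest on 2 UMIs. After LPS it had 49.5, 42.9, 48.05 and 142 CPM in p16-negative and 28.0, 20.4, 84.2 and 112 CPM in p16-positive libraries. Replicate 4 was again the highest in both LPS groups, and every group overlapped every other that was compared with it. The means were 72.7 ± 51.1 CPM in PBS p16-negative, 70.6 ± 47.6 in LPS p16-negative, 68.7 ± 56.8 in PBS p16-positive and 61.2 ± 44.3 in LPS p16-positive libraries (SD, n = 4). No neighbours in this order differed beyond their spread. The PBS p16-positive mean rests on replicate 1, and without the replicate 1 libraries it was 43.5 ± 32.0 CPM (n = 3), the lowest of the 4 groups, against 96.9 ± 19.7 CPM in PBS p16-negative libraries.

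Myd88, the shared adapter, was the most evenly counted member. It had 190, 214, 409 and 321 CPM in PBS p16-negative, 72.1, 152, 289 and 247 CPM in PBS p16-positive, 188, 179, 306 and 296 CPM in LPS p16-negative and 151, 133, 261 and 244 CPM in LPS p16-positive libraries. Replicates 3 and 4 were the 2 highest in each of the 4 groups. The means were 284 ± 101 CPM in PBS p16-negative, 242 ± 68.3 in LPS p16-negative, 197 ± 64.7 in LPS p16-positive and 190 ± 97.4 in PBS p16-positive libraries (SD, n = 4). Both p16-negative groups thus stood above both p16-positive groups by less than the larger SD of each pair. These SDs leave the replicate numbers aside. Compared by the same number within a treatment, Myd88 was lower in the p16-positive library in 8 of 8 comparisons. No source used here says that these numbers pair libraries.

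**Figure D1:**
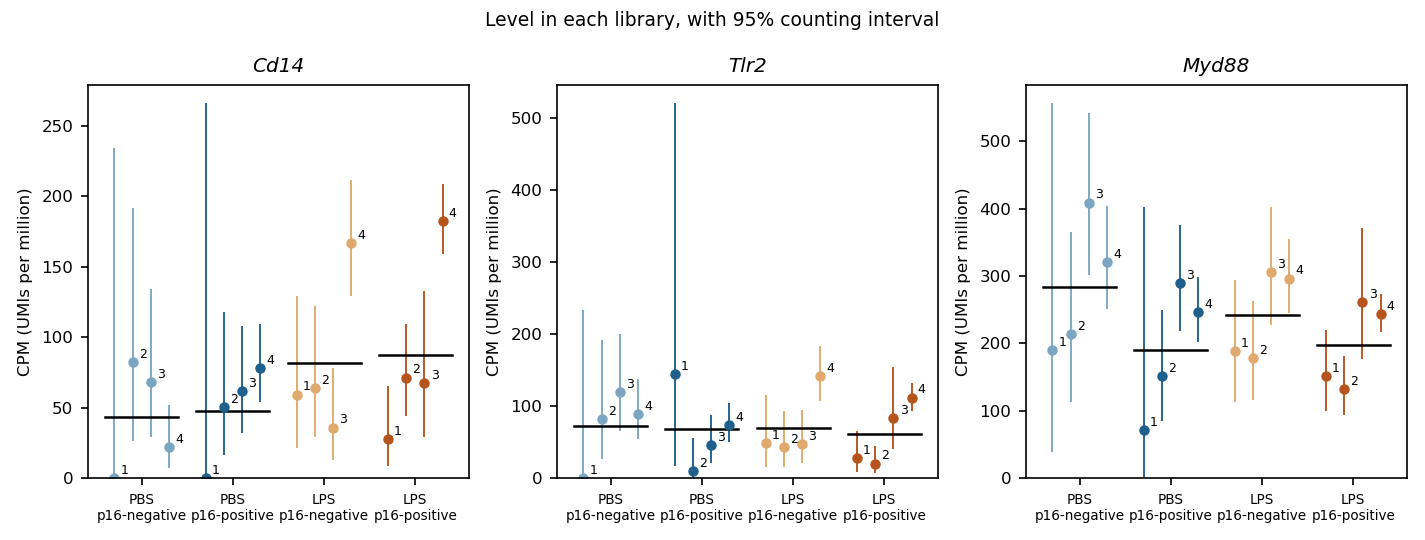
Levels of Cd14, Tlr2 and Myd88 in CPM (linear axes that differ between panels) in the 16 libraries. Points are libraries with their replicate number, vertical lines are 95% exact binomial intervals for counting error, and horizontal lines are means of the 4 libraries of a group. Cd14 at 167 and 183 CPM in the LPS replicate 4 libraries stands above the rest.

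The first comparison asks whether chronic LPS changed these genes over both fractions. None of the 3 members passed the threshold (edgeR quasi-likelihood test, Benjamini-Hochberg adjusted p under 0.05 over 6516 tested genes), where 0.921% of all tested genes did, and none passed with DESeq2 or voom. Cd14 was 0.87 higher after LPS on the log2 scale (SE 0.42, 95% interval 0.01 to 1.73, adjusted p = 0.525, n = 8 libraries per treatment), and it was the 1 member with an unadjusted p under 0.05 (0.0468), as were 9.27% of all tested genes. Tlr2 differed by 0.18 (SE 0.42, interval -0.67 to 1.03, adjusted p = 0.973) and Myd88 by 0.03 (SE 0.32, interval -0.61 to 0.68, adjusted p = 0.996). The median of all tested genes was 0.14 with the TMM scaling used here and 0.03 with RLE factors in the same fit. Relative to that median of 0.14, Cd14 was at 0.73, Tlr2 at 0.04 and Myd88 at -0.11. The sign of the Myd88 value turned with RLE (-0.089) and upper-quartile (-0.012) scaling, and with DESeq2, which changes both the scaling and the fit (-0.12).

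The Cd14 value rested on the replicate 4 libraries. Without LPS p16-positive replicate 4 it was 0.54 (edgeR adjusted p = 0.841), and with both LPS replicate 4 libraries left out, a setting chosen after seeing the data, it was 0.22 (adjusted p = 0.928) and Tlr2 was -0.40 (adjusted p = 0.831). With both PBS replicate 1 libraries left out the Cd14 value was 0.72 (adjusted p = 0.701).

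Within each fraction the LPS values were less precise, and those of Tlr2 and Myd88 were smaller than their SEs in either fraction. In p16-negative cells Cd14 differed by 0.99 (SE 0.65, interval -0.34 to 2.31), Tlr2 by -0.06 (SE 0.60) and Myd88 by -0.04 (SE 0.47). Without LPS p16-negative replicate 4 the Cd14 value there was 0.39, and without PBS p16-negative replicate 3 it was 1.39. None of the 3 was called, against 0.0153% of all tested genes. In p16-positive cells Cd14 differed by 0.78 (SE 0.58, interval -0.41 to 1.96), Tlr2 by 0.43 (SE 0.61) and Myd88 by 0.12 (SE 0.47), and none was called, against 0.046% of all tested genes. Without LPS p16-positive replicate 4 the Cd14 value in p16-positive cells was 0.09. These comparisons use the same libraries as the one over both fractions and are no separate evidence.

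The second comparison asks whether the genes differed between p16-positive and p16-negative AMs over both treatments. None of the 3 members was called, where 1.41% of all tested genes were, and none passed with DESeq2 or voom. All 3 had an unadjusted p above 0.05, where 10.2% of all tested genes had one below it. Tlr2 was -0.51 (SE 0.42, interval -1.35 to 0.34, adjusted p = 0.827 by edgeR) and Myd88 -0.46 (SE 0.32, interval -1.10 to 0.18, adjusted p = 0.757), so both estimates lay on the side of the p16-negative fraction. Cd14 was at 0.16 (SE 0.41, interval -0.68 to 1.00, adjusted p = 0.979), and without LPS p16-positive replicate 4 it was -0.15. The median of all tested genes was 0.08.

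Within PBS the p16-positive minus p16-negative differences were 0.28 for Cd14 (SE 0.68), -0.79 for Tlr2 (SE 0.64) and -0.54 for Myd88 (SE 0.48). Within LPS they were 0.07 (SE 0.55), -0.29 (SE 0.57) and -0.38 (SE 0.46). In both, edgeR called 0 of the 3 members and 0% of all tested genes, with 361 and 445 genes at an unadjusted p under 0.05, and DESeq2 and limma's voom also called 0 genes. The test of whether the LPS difference itself differed between the fractions gave -0.21 for Cd14 (SE 0.87), 0.50 for Tlr2 (SE 0.86) and 0.16 for Myd88 (SE 0.66). Here too edgeR, DESeq2 and voom called 0% of all tested genes, with 101 genes at an unadjusted p under 0.05 in edgeR.

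**Figure D2:**
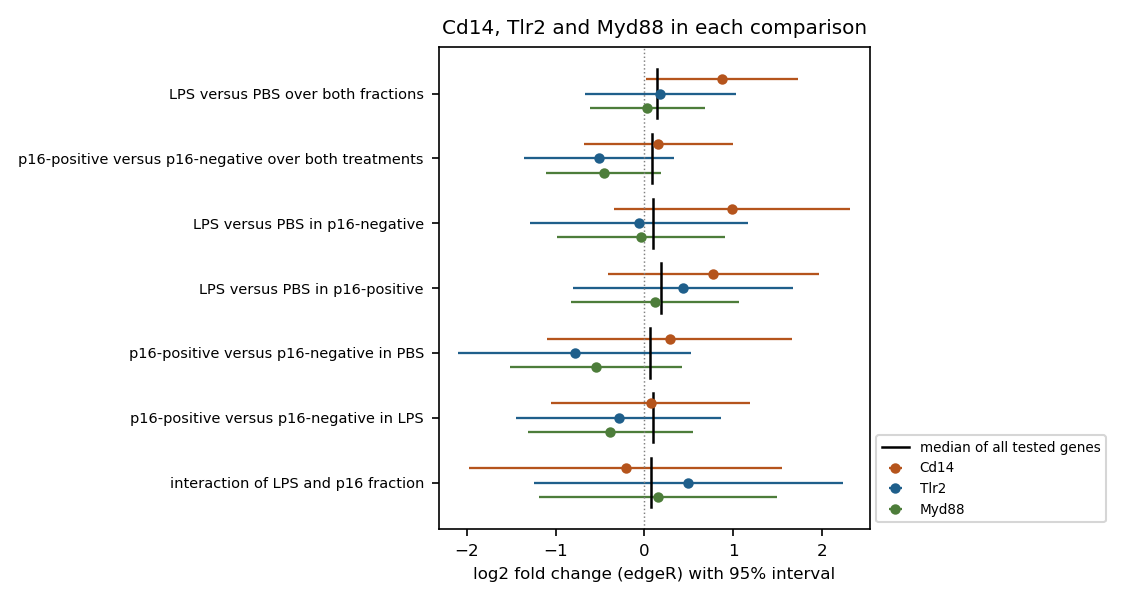
Log2 fold changes of Cd14, Tlr2 and Myd88 (horizontal axis, edgeR, points with 95% intervals) in the 7 comparisons (rows), with the median of all 6516 tested genes as a black bar. Only the interval of Cd14 in LPS versus PBS over both fractions, 0.01 to 1.73, leaves out 0, and none of the 21 values passed after adjustment.

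The levels of Tlr2 and Myd88 went together across the 16 libraries, with a Spearman correlation of log2 CPM of 0.65 (0.73 over the 14 libraries without PBS replicate 1). Cd14 went less with either, at 0.42 with Tlr2 and 0.24 with Myd88 (0.37 and -0.14 over the 14 libraries). These are descriptions over libraries that share depth and makeup. The members were also set against the share of UMIs taken by each of 9 marker lists. For Tlr2 the correlation was 0.75 with AM markers, -0.61 with epithelial markers and -0.45 to 0.13 with the other 7 lists. For Myd88 it was -0.79 with interstitial macrophage, -0.77 with epithelial, 0.76 with AM and -0.64 with neutrophil markers, and -0.51 to 0.06 with the other 5. For Cd14 it was -0.51 with fibroblast and pericyte markers, 0.50 with dendritic cell markers (-0.31 and 0.26 over the 14 libraries) and -0.41 to 0.33 with the other 7. The interstitial macrophage and epithelial correlations of Myd88 are not separate. The interstitial macrophage share was highest in LPS p16-positive replicate 2 (0.736%) and PBS p16-positive replicate 1 (0.577%), where epithelial markers took 9.89% and 27.3%. C1qa gave 47.1% and Cbr2 35.9% of the interstitial macrophage list's UMIs. The epithelial share was also higher in p16-positive than in p16-negative libraries of either treatment, by medians of 6.73% against 2.65% in PBS and 1.16% against 0.599% in LPS, beside the negative Tlr2 and Myd88 estimates above. Of the 17 tested epithelial markers 16 had positive values in that comparison and 6 were called higher. Called higher too were 3 of 10 endothelial and 1 of 9 neutrophil markers. Of the 19 AM markers 16 had negative values and 0 were called. Over all tested genes edgeR called 1.41% in either direction there. The part of these cell types in the Tlr2 and Myd88 estimates was not tested.

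By a rule, the 3 genes with the highest Spearman correlation to each member were taken, among 2679 genes with a mean of at least 50 CPM. The authors counted uniquely mapped reads only, so reads shared between near-identical genes would be left out. For Cd14 the 3 genes were H2-D1 (0.94), an MHC class I gene with near-identical family members, C1qc (0.90), a chain of the complement protein C1q, and Tspo (0.90), a protein of the outer mitochondrial membrane. The same 3 genes led over the 14 libraries without PBS replicate 1 (0.91, 0.85 and 0.85). H2-D1 stood at 3563 and 3994 CPM in the LPS replicate 4 libraries and between 825 and 1825 CPM in the other 14. C1qc, counted here on the list of interstitial macrophage markers, stood at 231 and 389 CPM in the LPS replicate 4 libraries and at 0 to 179 CPM in the other 14. It was called in LPS versus PBS at 1.98 (SE 0.50, adjusted p = 0.0439 by edgeR), where 0.43% of all tested genes were called higher. Of the 5 tested genes of that list, 3 had positive values, all C1q chains (C1qa and C1qc called), and 2 negative values, Stab1 at -0.67 (adjusted p = 0.729) and Cbr2 at -0.42 (adjusted p = 0.956). C1qa gave 47.1% and Cbr2 35.9% of the list's UMIs. The interstitial macrophage list, with 6 of 10 genes in the table, took 0.0537% to 0.419% of UMIs in PBS p16-negative, 0.114% to 0.577% in PBS p16-positive, 0.0360% to 0.236% in LPS p16-negative and 0.0795% to 0.736% in LPS p16-positive libraries. The Spearman correlation of Cd14 with this share was 0.12 over the 16 libraries and 0.55 over the 14, and the part of such cells in the Cd14 values was not tested.

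For Tlr2 the most similar genes were Csf2ra (0.84), the alpha chain of the receptor for the growth factor GM-CSF on which AMs depend, Sh3pxd2b (0.83), a scaffold of podosomes, and Alox5 (0.79), the lipoxygenase that starts leukotriene synthesis. Csf2ra was also first over the 14 libraries (0.91), whereas Sh3pxd2b and Alox5 gave way to Sort1 and Ube2l3. For Myd88 they included Trappc9 (0.93), a subunit of a vesicle tethering complex, and Sf3a2 (0.89), a splicing factor subunit. Trappc9 was also first over the 14 libraries (0.90).

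**Figure D3:**
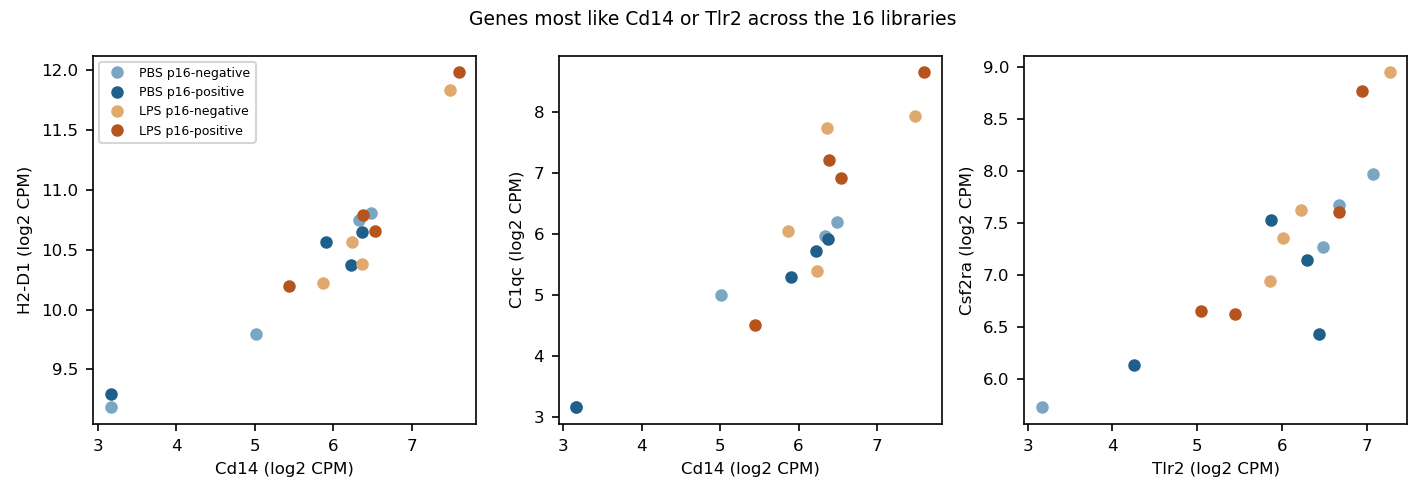
Log2 CPM (edgeR, prior count 2, TMM scaled) of H2-D1 and C1qc against Cd14 and of Csf2ra against Tlr2, 1 point per library, coloured by group. The LPS replicate 4 libraries are the 2 points at the upper right of the Cd14 panels, and the PBS replicate 1 libraries, at 0 UMIs of Cd14, coincide at the lower left for C1qc.

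The other genes of TLR signalling were taken from a list of 62 genes, of which 38 had a row and 33 passed the filter of 30 UMIs. After LPS, 1 of the 33 rose by edgeR, where 0.43% of all tested genes did, and 0 fell. An unadjusted p under 0.05 was found for 4 of the 33 and for 9.27% of all tested genes. DESeq2 and voom also called 1 higher and 0 lower. Their median log2 difference was 0.39, beside 0.14 over all tested genes, and 25 of the 33 values were positive. The median of all tested genes was itself above 0, so most of their values were positive too, and their share is not given here. That median was 0.03 with RLE factors, so counts of signs depend on the scaling. The members sharing a role were spread as follows. All 9 tested kinases and ubiquitin ligases of TLR signalling, Ikbke and Tbk1 among them, had positive values (median 0.39, 1 called). These ran from 0.04 for Tab2 to 1.52 for Irak2. Values were also positive for the 3 adapters (median 0.45), the 3 chaperones and trafficking proteins (median 0.45) and the 4 receptors and homologues (median 0.88). Of the 5 LPS-binding proteins 2 had positive values (median -0.30), and of the 9 negative regulators 4 (median -0.02). None of these other groups held a called gene.

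Irak2, a kinase-like subunit of the Myddosome, was the gene that rose. It had 127, 49.3, 25.6 and 31.2 CPM in PBS p16-negative and 0, 40.4, 62.0 and 50.8 CPM in PBS p16-positive libraries. After LPS it had 129, 143, 120 and 132 CPM in p16-negative and 78.4, 78.3, 110 and 124 CPM in p16-positive libraries. The 127 CPM of PBS p16-negative replicate 1 rest on 2 UMIs, and all the other PBS libraries lay below every LPS library. Means were 58.3 ± 46.9 CPM in PBS p16-negative, 38.3 ± 27.0 in PBS p16-positive, 131 ± 9.40 in LPS p16-negative and 97.6 ± 23.0 in LPS p16-positive libraries (SD, n = 4). Without the replicate 1 libraries the PBS means were 35.4 ± 12.4 and 51.1 ± 10.8 CPM (n = 3), so their order turned, and both stayed below the LPS means. The LPS versus PBS value was 1.52 on the log2 scale (2.86-fold, SE 0.36, 95% interval 0.79 to 2.25, adjusted p = 0.0245 by edgeR), or 1.38 above the median of all tested genes. As for Cd14, the fit counts the 8 libraries of a treatment as separate, although the 2 fractions may share a sample. Markers of other cell types moved in the same comparison, in which edgeR called 0.921% of all tested genes in either direction and 0.43% as higher. All 10 tested endothelial markers had negative values (median -2.04, 6 called lower), as did all 4 tested fibroblast and pericyte markers (median -2.60, 2 called lower), and 2 of 5 interstitial macrophage markers were called higher. The other 6 lists held 0 called genes. Of these, the epithelial list took a median of 2.65% of UMIs in PBS p16-negative and 0.599% in LPS p16-negative libraries. In the p16-positive fraction its medians were 6.73% in PBS and 1.16% in LPS libraries, and its ranges overlapped in either fraction. The endothelial list, with 10 of 12 genes in the table and 0 to 2 of these at 0 in a library, took 0.0835% to 0.482% of UMIs in PBS p16-negative, 0.507% to 1.15% in PBS p16-positive, 0.0174% to 0.0743% in LPS p16-negative and 0.0251% to 0.257% in LPS p16-positive libraries. The fibroblast and pericyte list, with 4 of 11 genes in the table and 0 to 2 of these at 0 in a library, took 0.00426% to 0.0829% of UMIs in PBS and 0.00174% to 0.0133% in LPS libraries. The part of these cell types in the Irak2 and Cd14 values was not tested.

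With TMM-scaled CPM the LPS and PBS libraries did not overlap for Irak2 in either fraction, which was so, in the same direction, for 1.98% of tested genes in p16-negative and 2.41% in p16-positive cells. On the same scale the LPS p16-positive libraries, at 91.8 to 126, lay below the LPS p16-negative ones, at 135 to 164, as did those of 0.568% of tested genes, while in unscaled CPM the 2 groups overlapped. The LPS and PBS p16-negative libraries also overlapped in unscaled CPM. There PBS p16-negative replicate 1 had 127 CPM on 2 UMIs, which TMM scaling brought to 88.0. The count of 0 in PBS p16-positive replicate 1 allows up to 216 CPM, above every LPS library. Within the fractions the values were 1.91 in p16-negative (SE 0.55, adjusted p = 0.464) and 1.21 in p16-positive cells (SE 0.50, adjusted p = 0.624), and the difference between them was -0.70 (SE 0.74, adjusted p = 1.00, edgeR). The call was close to the threshold. It was lost when any 1 of 6 libraries was left out, namely PBS p16-negative replicates 2, 3 and 4 (adjusted p = 0.0523, 0.0708 and 0.0804), PBS p16-positive replicates 2 and 4 (0.0555 and 0.0663) and LPS p16-positive replicate 4 (0.0623). The value itself ran from 1.40 to 1.70 over the 16 libraries left out in turn. GENCODE M21 lists 3 uncharacterised genes within Irak2, none with a row in the table.

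Ly86, which encodes MD-1, the partner of the TLR4 homologue RP105 (Cd180), had the largest positive LPS value of the list at 1.94 (SE 0.63) and was not called (adjusted p = 0.157 by edgeR). It had 0, 0, 17.04 and 0 CPM in PBS p16-negative, 0, 0, 15.5 and 9.23 CPM in PBS p16-positive, 29.7, 35.7, 24.02 and 24.9 CPM in LPS p16-negative and 11.2, 13.6, 16.8 and 50.2 CPM in LPS p16-positive libraries. The LPS libraries held 89 of its 98 UMIs, so it passed the filter through them. All 4 LPS p16-negative libraries lay above all 4 PBS p16-negative ones in CPM and with TMM scaling, as for 1.98% of tested genes. The PBS p16-negative libraries held 2 Ly86 UMIs in all. The count of 0 in replicate 4 allows up to 13.4 CPM, below every LPS p16-negative library, whereas those in replicates 1 and 2 allow up to 190 and 49.3 CPM, above every one of them, so the order is not fixed at the depth of these 2 libraries. The p16-positive groups overlapped. Ikbke, the kinase IKK-epsilon, was at 1.22 (SE 0.51, adjusted p = 0.396), with 9.64 ± 16.4 and 27.1 ± 18.5 CPM in PBS p16-negative and p16-positive and 41.5 ± 32.5 and 47.8 ± 43.6 CPM in the matching LPS libraries. Hsp90b1, the chaperone gp96 that folds TLRs in the endoplasmic reticulum, was at 0.74 (SE 0.35, adjusted p = 0.510), with 332 ± 190 and 413 ± 184 CPM in PBS and 487 ± 212 and 674 ± 251 CPM in LPS libraries of the p16-negative and p16-positive fraction.

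**Figure D4:**
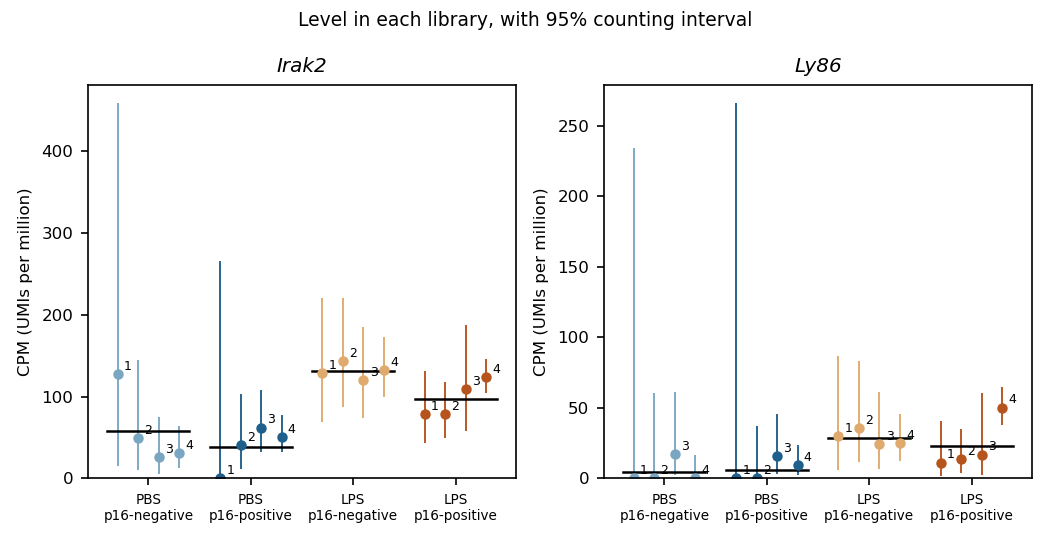
Levels of Irak2 and Ly86 in CPM (linear axes that differ between panels) in the 16 libraries, drawn as for the members: points with replicate numbers, 95% exact binomial intervals and group means. Irak2 lies at 78.3 to 143 CPM in LPS libraries and, apart from PBS p16-negative replicate 1 with 2 UMIs, at 0 to 62.0 CPM in PBS libraries.

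**Figure D5:**
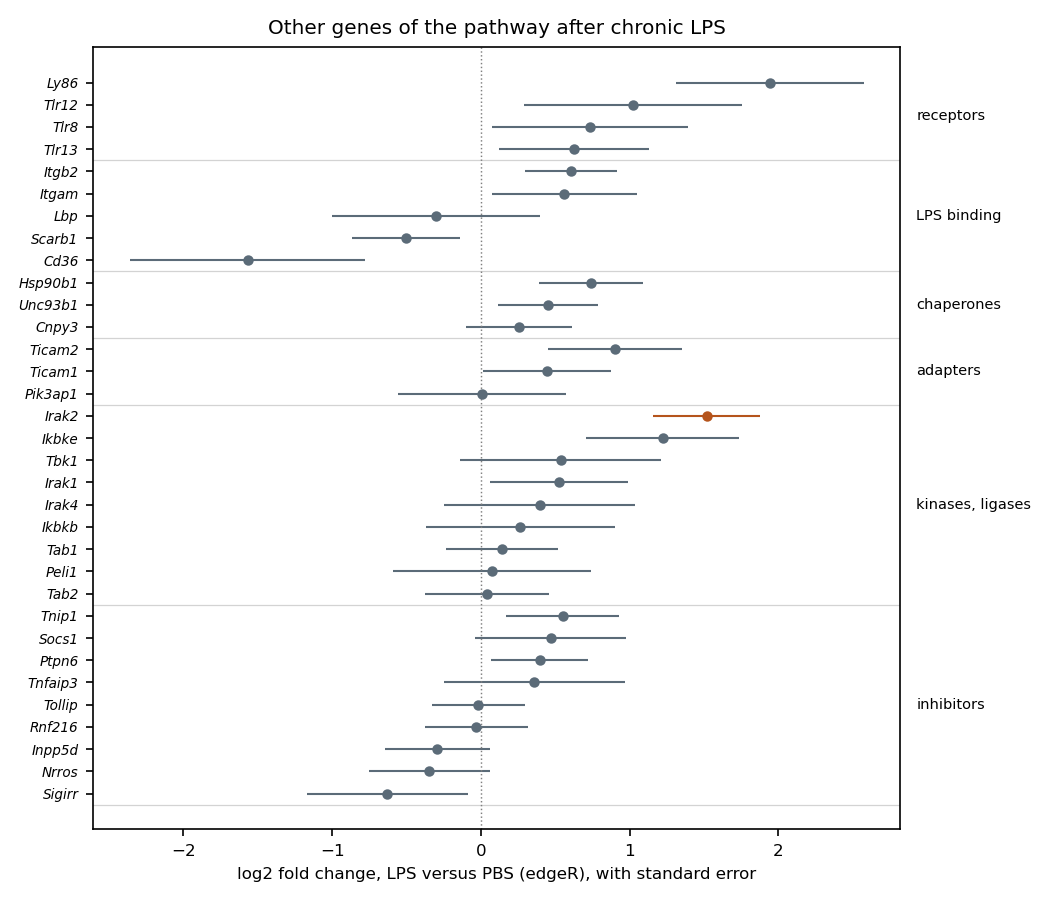
Log2 fold changes for LPS versus PBS over both fractions (horizontal axis, edgeR, points with standard errors) of the 33 tested genes of the pathway list, grouped by role. Irak2 (orange, 1.52) is the one gene past the threshold, and values run from -1.57 for Cd36 to 1.94 for Ly86.

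Between the p16 fractions, edgeR, DESeq2 and voom each called 0 of the 33 pathway genes, where edgeR called 1.41% of all tested genes. An unadjusted p under 0.05 was found for 1 of the 33 and for 10.2% of all tested genes. Their median was 0.01, beside 0.08 over all tested genes, with 17 positive and 16 negative values. The lowest p belonged to Tlr8, an endosomal receptor for RNA, at -1.37 (SE 0.64, adjusted p = 0.417), which had 40 UMIs in all. Next were Sigirr, an inhibitory receptor of the IL-1 and TLR family, at 0.95 (SE 0.55, adjusted p = 0.648), Ptpn6, the phosphatase SHP-1, at -0.55 (SE 0.33, adjusted p = 0.659), and Irak4, the kinase that starts the Myddosome cascade, at 1.19 (SE 0.66, adjusted p = 0.679). Irak2 itself was at -0.21 (SE 0.35, adjusted p = 0.951), and at -0.47 within LPS (SE 0.45, adjusted p = 1.00).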

How the data were processed

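RNA of sorted AMs was measured in 16 libraries, which the labels say were made from pooled samples, by INs-seq (intracellular staining and sorting before sequencing) followed by bulk MARS-seq of 3′ ends. The authors processed reads with the UTAP pipeline on mouse build mm10 with NCBI annotation release 109 and deposited raw UMI counts per gene, which were the only values used here. The normalized signal, regularised log values and DESeq2 fold changes with p-values in the same table were not used. No deposited count column was left unmatched. Totals ran from 13861 to 1176358 UMIs and cover the listed genes only, each of which reached at least 6 UMIs in some library. The sources used here do not link libraries to animals, and the p-values therefore reflect variation among libraries, which may be technical in part. The paper gives 4 control and 4 inflamed samples, so the 8 libraries of a treatment may not be independent.

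Groups followed the labels. Genes with at least 30 UMIs over the 16 libraries (6516 of 7946) entered edgeR 4.0.16 (R 4.3.3, TMM scaling) and its quasi-likelihood F test, all libraries in each fit, with Benjamini-Hochberg adjustment and a threshold of 0.05. LPS versus PBS carried fraction, and p16-positive versus p16-negative carried treatment, as additive term. Other comparisons were contrasts of the 4 group means. Intervals of log2 differences use the t distribution with the degrees of freedom of the fit. Counting intervals are exact binomial at 95%, floors are the level of 3 counts, and both cover counting error only. At a count of 0 the interval reaches above the floor. Log2 CPM used a prior count of 2. Named genes were the members, the pathway genes past the threshold or with the 4 lowest p-values in either main comparison, and the 3 genes most similar to each member, of which 1 is not reported here. Other genes named (cell type markers, neighbours and C1qc's own test) were chosen after their values were seen. Members and lists were chosen with earlier results of these data known. Alternatives were RLE and upper-quartile factors, DESeq2 1.42.0, limma 3.58.1 voom with sample quality weights, no filter, filterByExpr, replicate blocks, only the 8 libraries of a comparison, and leaving out each library, both PBS replicate 1 libraries or, chosen after seeing the data, both LPS replicate 4 libraries. Promoter windows came from RefSeq on GRCm38.p6, and were used for Tlr2, Myd88 and Irak2. The fits were tested on simulated data.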

Additional observations from a re-analysis of the deposited data

Results flagged for a closer look

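In 2 of the 12 combinations of member and group examined, 1 library lay further from the other 3 than Dixon's criterion allows, which chance gives in about 1 of 20 groups. Cd14 in PBS p16-positive replicate 1 stood at 3.16 on the log2 CPM scale with 0 UMIs, where the other libraries of the group lay between 5.90 and 6.37. Tlr2 in PBS p16-negative replicate 1 also stood at 3.16 with 0 UMIs, where the others lay between 6.48 and 7.07. The 2 libraries are the shallowest of the 16, with 13861 and 15755 UMIs, and 3.16 is the value that the prior count gives to any gene at 0. Their counts of 0 allow up to 216 and 190 CPM.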

How the results depend on the processing

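None of the 549 alternative values of Cd14, Tlr2 and Myd88 in the 7 comparisons was called, and the lowest adjusted p was 0.222, for Cd14 in LPS versus PBS with the replicate block by number (value 0.94). In LPS versus PBS over both fractions, Tlr2 turned to -0.050 with voom and to -0.40 without both LPS replicate 4 libraries. Myd88 turned to -0.089 with RLE, -0.012 with upper-quartile factors, -0.12 with DESeq2, -0.072 with voom, -0.11 with filterByExpr, -0.16 without both PBS replicate 1 libraries and -0.082 without both LPS replicate 4 libraries. For LPS in p16-negative cells, dropping the filter gave 0.026 for Tlr2 and 0.030 for Myd88, and the replicate block gave 0.032 for Myd88. For LPS in p16-positive cells, Tlr2 was -0.17 without both LPS replicate 4 libraries. Myd88 was -0.029 with RLE, -0.048 with DESeq2, -0.053 with filterByExpr, -0.11 without both PBS replicate 1 and -0.058 without both LPS replicate 4 libraries. For p16 in LPS, Cd14 was -0.18 with voom and -0.0015 without both LPS replicate 4 libraries. The cause of these turns was not tested.

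Leaving out each library in turn gave these ranges. For LPS versus PBS over both fractions, Cd14 ran from 0.54 to 1.03, Tlr2 from -0.11 to 0.36 and Myd88 from -0.071 to 0.19. For LPS in p16-negative cells, Cd14 ran from 0.39 to 1.39, Tlr2 from -0.62 to 0.25 and Myd88 from -0.26 to 0.29. For LPS in p16-positive cells, Cd14 ran from 0.088 to 1.05, Tlr2 from -0.17 to 0.75 and Myd88 from -0.095 to 0.42. For the p16 fractions, Cd14 ran from -0.15 to 0.48 over both treatments, from -0.091 to 0.66 in PBS and from -0.56 to 0.66 in LPS, Tlr2 from -0.79 to -0.28, from -1.13 to -0.47 and from -0.84 to 0.26, and Myd88 from -0.60 to -0.34, from -0.84 to -0.24 and from -0.55 to -0.17, in the same order. The interaction ran from -0.89 to 0.38 for Cd14, -0.10 to 1.04 for Tlr2 and -0.17 to 0.43 for Myd88.

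The count of all genes called for LPS versus PBS was 60. It was 135 with DESeq2, 127 with voom, 242 with the replicate block, 19 without both LPS replicate 4 libraries, and 29 (without PBS p16-positive replicate 4) to 195 (without LPS p16-positive replicate 2) with 1 library left out. For the p16 fractions it was 92. It was 61 with upper-quartile factors, 9 with voom, 157 with no filter, 21 with filterByExpr, 260 with the replicate block by number, 357 with the replicate block by treatment and number, 43 without both PBS replicate 1 libraries, and 0 (without LPS p16-negative replicate 4) to 284 (without LPS p16-positive replicate 4) with 1 library left out. Irak2, to which the settings were applied after its call was seen, was called under each other tool, scaling, filter and block (1.39 to 1.57), and not without both LPS replicate 4 libraries (1.46, adjusted p = 0.0913 by edgeR). Ly86 was called with the replicate block by number (2.13, adjusted p = 0.0319 by edgeR). The LPS libraries held 89 of its 98 UMIs, so Ly86 passed the filter through them, and the PBS side of this call rests on 9 UMIs. Same-numbered fractions of a treatment deviated together to a varying degree (correlation 0.04 to 0.71 over 8 pairs), and 12 of 16 libraries correlated best with their own number, a hint from the data and not from the design. Myd88 was lower in the p16-positive library in 8 of 8 same-numbered comparisons, and with the replicate block by treatment and number its p16 value was -0.44 (adjusted p = 0.314 by edgeR). At the depth of the PBS replicate 1 libraries, levels of Cd14, Tlr2, Irak2 or Ly86 seen elsewhere could not be told from 0.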
